A study of Mus musculus with 4 samples.

Results

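The glutathione S-transferases (GSTs) described here are 10 genes of the cytosolic family, picked by gene symbol: Gsta1, Gsta2, Gsta3 and Gsta4 of the alpha class, Gstm1, Gstm2, Gstm3 and Gstm4 of the mu class, Gstp1 of the pi class and Gstt1 of the theta class. All 10 were found among the 27027 entries of the count table. Hepatic RNA of male C57BL/6J mice (C57BL/6 in the labels), aged 9 to 12 weeks and fasted for 10 h, was sequenced at the 3′ ends of mRNA by massive analysis of cDNA ends (MACE). The 4 groups were vehicle-treated controls (0.9% NaCl, intraperitoneally) at 24 h and at 48 h, and mice given acetaminophen (APAP, 300 mg/kg) at 24 h and at 48 h. RNA of 6 mice per control group and of 7 mice per APAP group was combined at equal shares into 1 pool per group, and each pool gave 1 library. Differences between mice therefore cannot be seen, no test can be made within a time point, and each interval below covers counting error only. The spread between pools enters a single test, of the 2 APAP pools against the 2 control pools over both times.

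GSTs couple the tripeptide glutathione to electrophilic compounds, which are then exported from the cell and processed to mercapturic acids. Hepatocytes hold large amounts of these enzymes. They are of interest in APAP injury because cytochrome P450 enzymes, chiefly Cyp2e1, turn APAP into a reactive quinone imine that binds glutathione, with and without GST catalysis, and depletes it. Several GST genes carry antioxidant response elements in their promoters, through which the transcription factor Nrf2 raises their transcription.

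The libraries held 4859661 and 5191990 counted reads in the control pools at 24 h and 48 h, and 5698778 and 4938164 in the APAP pools. Normalised read counts are reads divided by a size factor per library (0.880 and 0.933 for the control pools, 1.17 and 1.07 for the APAP pools). Folds are ratios of normalised read counts, with the APAP pool over its time-matched control unless stated otherwise, and carry a 95% exact (Clopper-Pearson) interval. Because MACE counts an end fragment per transcript, counts were not divided by transcript length, and levels are compared between libraries rather than between genes.

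The genes lie in clusters of close relatives, so the sequences at which reads can be told apart are shown first. Gsta1 (chromosome 9, 78230656 to 78242684, plus strand, GRCm38) is followed on the same strand by Gm3776 (78257129 to 78269166) and Gm10639 (78289923 to 78305525), with Gsta2 beyond them on the minus strand (78331018 to 78355788). The last 300 bases of Gsta1 and Gm3776 were 99.7% identical. Their transcripts, of 875 and 874 bases, had 4 mismatched bases when aligned, gaps not counted. Ends were matched against whole transcripts. The Gsta1 end matched one Gsta2 transcript at 94.6%. The end of another Gsta2 transcript matched Gsta1 at 97.7% and Gm3776 at 97.7%, and a Gsta2 end matched Gm10639 at 97.3%. A stretch of the reading frame (bases 576 to 605, from GENCODE transcripts) is printed to show how little separates the 3 genes, with the bases that differ among them in capitals.
Gsta1: caatgtgaagaagttCctacaGcctggcag
Gm3776: caatgtgaagaagttTctacaGcctggcag
Gsta2: caatgtgaagaagttCctacaTcctggcag

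The promoters of Gsta1 and Gsta2 are printed because these closely related genes had different folds. Each window runs from 250 bases before to 50 bases after the RefSeq start (GRCm38.p6), at chr9:78230419-78230718 on the plus strand for Gsta1 and chr9:78347096-78347395 on the minus strand for Gsta2. Capitals mark the longest run that both windows share, 29 bases, which begins 118 bases before the start of Gsta1 and 121 bases before that of Gsta2.
Gsta1: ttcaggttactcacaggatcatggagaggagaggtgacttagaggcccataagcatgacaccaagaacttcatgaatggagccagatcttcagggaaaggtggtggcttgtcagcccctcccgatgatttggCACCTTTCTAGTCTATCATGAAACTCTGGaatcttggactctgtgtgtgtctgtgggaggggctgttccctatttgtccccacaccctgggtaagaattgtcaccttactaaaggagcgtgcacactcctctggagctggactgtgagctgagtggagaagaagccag
Gsta2: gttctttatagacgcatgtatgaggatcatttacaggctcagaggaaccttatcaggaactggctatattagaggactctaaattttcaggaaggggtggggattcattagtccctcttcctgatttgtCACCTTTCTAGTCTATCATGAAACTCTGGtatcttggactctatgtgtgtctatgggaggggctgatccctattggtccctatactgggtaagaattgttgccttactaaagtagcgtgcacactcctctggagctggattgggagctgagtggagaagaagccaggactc

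Windows of 9 of the 10 genes were at hand, and they were searched on both strands for TGACNNNGC, the core of the antioxidant response element, and for TGAGNNNGC, a common variant of it. The patterns differ at the fourth base, so no site holds both on the same strand. Gsta3 held TGACATTGC 121 bases before its start, and 12.4% of 32851 windows held the first pattern. Gstp1 held TGAGTCAGC 74 bases before its start and a match on the other strand 9 bases before it, and Gstt1 held TGAGAGAGC 89 bases before its start; 17.6% of all windows held the second pattern. Neither pattern stood in the windows of Gsta1 and Gsta2, which says only that these letters are not in these 300 bases. The Gsta3 window (chr1:21240335-21240634, plus strand) and the Gstp1 window (chr19:4037863-4038162, minus strand) follow, with the matches in capitals.
Gsta3: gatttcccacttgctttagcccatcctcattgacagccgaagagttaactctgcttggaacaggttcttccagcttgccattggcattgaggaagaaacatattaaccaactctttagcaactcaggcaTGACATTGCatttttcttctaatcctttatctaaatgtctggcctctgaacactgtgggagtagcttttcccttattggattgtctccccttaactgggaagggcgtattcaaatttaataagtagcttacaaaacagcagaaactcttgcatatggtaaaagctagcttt
Gstp1: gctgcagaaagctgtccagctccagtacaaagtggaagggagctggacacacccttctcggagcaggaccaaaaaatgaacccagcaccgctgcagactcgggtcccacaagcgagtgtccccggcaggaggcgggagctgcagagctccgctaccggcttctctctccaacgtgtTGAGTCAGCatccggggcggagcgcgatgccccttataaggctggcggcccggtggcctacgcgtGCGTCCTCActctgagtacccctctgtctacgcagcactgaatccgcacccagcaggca

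After APAP, most of the family had fewer reads and 1 member had many more. Both APAP pools lay below both control pools for Gsta3, Gsta4, Gstm1, Gstm2, Gstm3, Gstm4 and Gstt1, 7 of the 10 genes, where 26.2% of 11362 genes lay below in the same way. Scaled to library totals instead, Gstm1 stood at 1686 RPM (reads scaled to the library total) in the APAP pool at 48 h and at 1510.4 RPM in the control pool at 24 h, so it overlapped. Gsta1 lay above both control pools, as did 25.9% of genes, and Gsta2 and Gstp1 overlapped with the controls. At 24 h, 1 member was at least 2-fold higher (Gsta1; 6.17% of 10892 genes) and 4 were at least 2-fold lower (Gsta3, Gstm2, Gstm3 and Gstm4; 4.93% of genes). At 48 h, 1 was higher (Gsta1; 5.64% of 10831 genes) and 5 were lower (Gsta2, Gsta4, Gstm2, Gstm3 and Gstt1; 5.31% of genes). The calls moved with the control pool: against the control of the other time, Gsta4, Gstm1 and Gstt1 were also at least 2-fold lower at 24 h and Gstm4 was not, while at 48 h Gsta3, Gstm3 and Gstm4 were lower and Gsta2, Gsta4, Gstm2 and Gstt1 were not. Scaled to library totals, Gsta2 and Gsta4 lost the call at 48 h. The share of all genes past 2-fold was not computed under library totals or the other control pool. The median log2 fold of the 10 genes was -0.88 at 24 h and -0.999 at 48 h, against 0.028 and -0.015 over all genes counted. In whole-liver RNA, fewer cells of a type and less RNA per cell cannot be told apart.

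Over both times, edgeR's quasi-likelihood test of 2 APAP pools against 2 control pools (Benjamini-Hochberg adjustment over 11362 genes) called Gsta1 higher, as it did 2.32% of genes. Its log2 fold was 3.07 (adjusted p = 0.000108, edgeR). The test called 6 members lower, Gsta3, Gsta4, Gstm2, Gstm3, Gstm4 and Gstt1, beside 4.87% of genes. Their log2 folds ran from -1.95 for Gstm3 (adjusted p = 0.0029, edgeR) to -1.04 for Gsta4 (adjusted p = 0.00727, edgeR). Gstm1 had a log2 fold of -0.76 (adjusted p = 0.129, edgeR) and was called once time entered the fit as a block (adjusted p = 0.0141, edgeR). That fit called 7.37% of genes lower. Gsta2 (-0.46, adjusted p = 0.329, edgeR) and Gstp1 (-0.10, adjusted p = 0.843, edgeR) did not pass. Leaving out 1 library leaves 1 pool in a group, and calls then changed in both directions. Without the control pool at 24 h the call of Gsta3 was lost (log2 fold -1.04). Without the control pool at 48 h those of Gsta4 (-0.86) and Gstt1 (-0.77) were lost. Over the 4 such fits the log2 fold of Gstm1 ran from -1.09 to -0.34 and that of Gsta2 from -0.89 to -0.12. The fit takes pools of 24 h and 48 h as replicates of a treatment, and any difference between the times counts as spread.

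**Figure D1:**
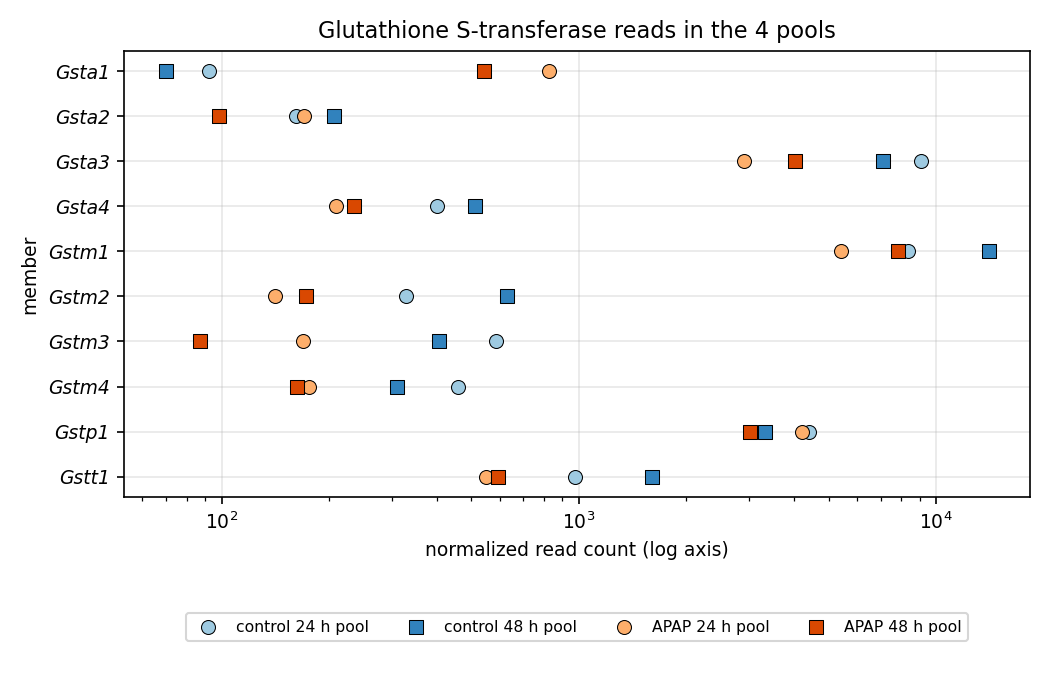
Normalised read counts (log scale) of the 10 genes in the 4 libraries, 1 point per library, with no error bars. Gsta1 sits far above its controls in both APAP pools, 7 genes sit below, and Gsta2 and Gstp1 overlap.

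**Figure D2:**
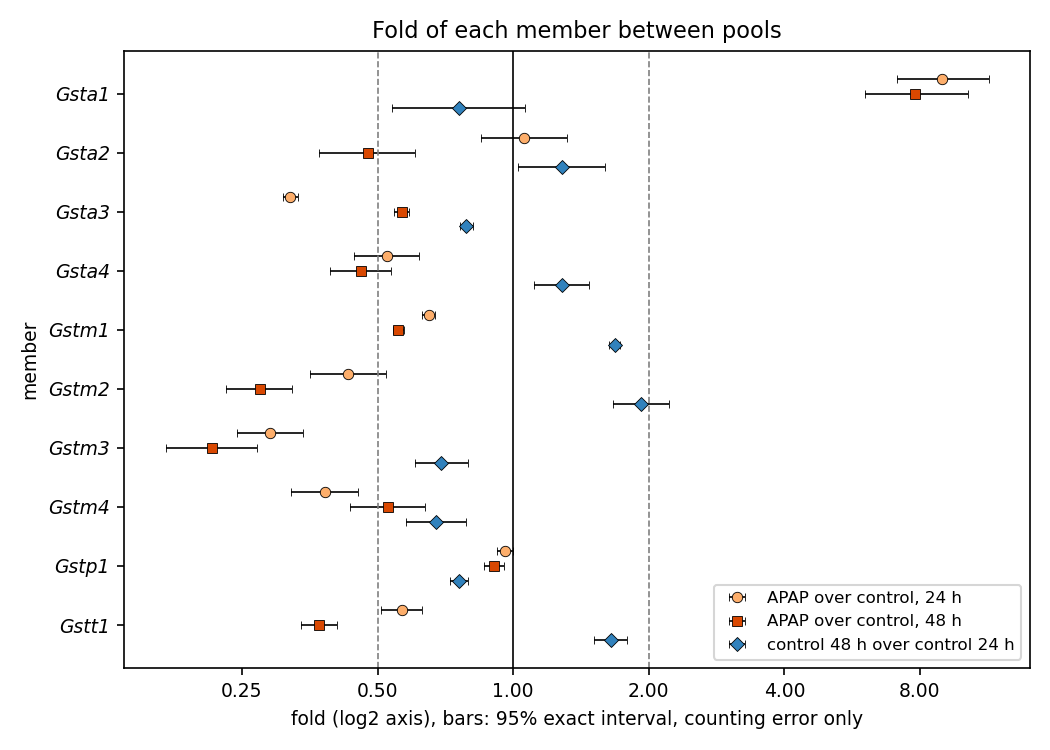
Fold of each gene on a log2 axis, as APAP pool over its time-matched control at 24 h and 48 h and as the 48 h control pool over the 24 h one, with 95% exact counting intervals and dashed lines at 2-fold. After APAP, Gsta1 lies at 8.94 and 7.80, and the intervals of 7 genes lie left of 1 at both times, as do those of 12.8% of 10361 genes.

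Gsta1 encodes an alpha-class subunit known to be inducible by xenobiotics and scarce in untreated mouse liver. Its normalised read counts were 92.1 and 69.7 in the control pools at 24 h and 48 h, against 824 and 544 in the APAP pools. The fold reached 8.94 (7.12 to 11.4) at 24 h and 7.80 (6.03 to 10.2) at 48 h, and it was the only member past the 5-fold threshold of the study (1.18% of genes at 24 h and 0.646% at 48 h were past it in this direction). None was 5-fold lower, as 0.643% and 0.84% of genes were. The ratio of the later fold to the earlier was 0.872 (0.611 to 1.25), so the 2 folds of Gsta1 as counted differed by less than counting error. Lower ratios, given below, were found for Gm3776 and for the sum over genes with linked 3′ ends. The controls used mattered little to the direction, with folds of 11.8 and 5.91 when each APAP pool was set against the control pool of the other time point.

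Because the last 300 bases of Gsta1 and Gm3776 differ at 1 base, the reads of Gsta1 could not be read without its neighbour. Gm3776 had 66 and 81 reads in the vehicle-treated pools, against 784 and 489 after APAP, folds of 8.90 (6.92 to 11.6) and 5.28 (4.17 to 6.76). Gsta1 took 55.1% and 44.5% of the reads of the pair in the vehicle-treated pools, against 55.2% and 54.3% in the APAP pools. The 4 exact binomial intervals (46.7 to 63.3, 36.3 to 53.0, 52.9 to 57.6 and 51.2 to 57.3) overlapped. Those of the control pool at 48 h and the APAP pool at 24 h did so only just, and overlap does not show equal shares. The cause of the like folds was not tested, and how reads matching both genes were counted is not given in the sources used here. Summed over Gsta1, Gsta2, Gm3776 and Gm10639, the 24 h fold came to 4.77 (4.23 to 5.39) and the 48 h fold to 2.97 (2.64 to 3.35). The ratio of the later fold to the earlier was 0.623 (0.524 to 0.740) for this sum and 0.593 (0.414 to 0.849) for Gm3776. Both intervals left out 1, unlike that of Gsta1, so whether the rise held to 48 h depends on how the reads were split.

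Gsta2, the close relative of Gsta1, differed from it. Its normalised read counts were 161 and 207 in the vehicle-treated pools, against 170 and 98.4 after APAP, so the APAP pool lay within the range of the controls at 24 h and below it at 48 h. The fold was 1.06 (0.847 to 1.32) at 24 h and a 2.10-fold lower value (1.65 to 2.69) at 48 h. The Gsta1 end matched one Gsta2 transcript at 94.6%, and the end of another Gsta2 transcript matched Gsta1 at 97.7%. Whether reads passed between the genes was not tested. Against the other control pool the 24 h value was 0.823 (0.672 to 1.01) and the 48 h value 0.610, so the 2-fold call at 48 h rests on the control pool chosen.

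Gsta3, an alpha-class enzyme that is abundant in mouse liver and detoxifies the fungal toxin aflatoxin, was the alpha gene with the most reads. Normalised read counts were 9053 and 7126 in the vehicle-treated pools, against 2900.2 and 4029 after APAP. The level was 3.12 times lower at 24 h (2.998 to 3.25) and 1.77 times lower at 48 h (1.70 to 1.84), and the fold at 48 h was 1.77 times the fold at 24 h (1.67 to 1.87). A gene on the other strand, Gm28836, overlaps Gsta3 but had at most 15 reads in any library.

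Gsta4 conjugates 4-hydroxynonenal, an aldehyde made when lipids are oxidised. Its normalised read counts were 400.2 and 513 in the vehicle-treated pools, against 209.5 and 235 after APAP. The level was 1.91 times lower at 24 h (1.62 to 2.26) and 2.18 times lower at 48 h (1.87 to 2.55), with a ratio of folds of 0.877 (0.697 to 1.10).

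The 4 mu-class genes lie within chromosome 3, 107963696 to 108044894, on the minus strand, and all 4 were lower in both APAP pools. Gstm1, the major mu subunit of mouse liver, had 8344 and 14030 normalised reads in the vehicle-treated pools, against 5424 and 7805 after APAP, 1.54 times lower at 24 h (1.49 to 1.59) and 1.80 times lower at 48 h (1.75 to 1.85). The Gstm1 control pools differed by 1.68-fold (1.63 to 1.73), so the level in the APAP pool at 48 h was 0.935 (0.906 to 0.965) of the control pool at 24 h. Gstm2 had 329 and 630.4 normalised reads in the vehicle-treated pools, against 141 and 173 after APAP, 2.32 times lower at 24 h (1.91 to 2.83) and 3.65 times lower at 48 h (3.09 to 4.34). For both genes the fold was smaller at 48 h while the APAP pool itself held more at 48 h than at 24 h, since the control pool held more too.

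Gstm3 had 587 and 406 normalised reads in the vehicle-treated pools, against 169 and 87.2 after APAP, and was the member with the lowest fold at both times, 3.46 times lower at 24 h (2.93 to 4.10) and 4.66 times lower at 48 h (3.71 to 5.91). Gstm4 had 459 and 309.9 normalised reads in the controls and 175 and 163 in the APAP pools, 2.62 times lower (2.21 to 3.11) and 1.90 times lower (1.57 to 2.31). Unlike Gstm1 and Gstm2, these genes held fewer reads in the control pool at 48 h than at 24 h. Ends of Gstm2, Gstm3 and Gstm4 matched no other gene at 95% identity, while Gstm1 matched 2 pseudogenes, Gm8834 and Gstm2-ps1. Of these, Gstm2-ps1 had at most 17 reads in any library.

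Gstp1, of the pi class, is known to bind and to modulate stress kinases besides conjugating electrophiles, and is also found outside hepatocytes, in bile duct cells among others. Normalised read counts were 4396 and 3330.2 in the vehicle-treated pools, against 4218 and 3023 after APAP. The levels at 24 h differed by less than counting error, 1.04 times lower (0.999 to 1.09), and at 48 h they were 1.10 times lower (1.05 to 1.16), a direction that flipped to 1.09-fold higher when libraries were scaled to their totals. The control pool at 48 h was itself 1.32 times lower than that at 24 h (1.26 to 1.38). The last 369 bases of Gstp1 (chromosome 19, 4035407 to 4037985) were identical with those of its neighbour Gstp2 (4040285 to 4046023), and Gstp1 took 50.3%, 49.2%, 49.5% and 49.7% of the reads of the pair in the control pools at 24 h and 48 h and the APAP pools at 24 h and 48 h. Summed over both genes, the 24 h fold came to 0.975 (0.946 to 1.004) and the 48 h fold to 0.898 (0.867 to 0.930).

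Gstt1, of the theta class, acts on small halogenated compounds. Its normalised read counts were 974 and 1605 in the vehicle-treated pools, against 551 and 595 after APAP. The level was 1.77 times lower at 24 h (1.59 to 1.96) and 2.70 times lower at 48 h (2.46 to 2.96), with a ratio of folds of 0.656 (0.570 to 0.755). As for Gstm1 and Gstm2, the control pool at 48 h was the highest library, 1.65 times the control pool at 24 h (1.51 to 1.79). Against the other control pool, the fold was 0.343 for the APAP pool at 24 h and 0.611 for that at 48 h, which gains the 2-fold call at 24 h and ends it at 48 h.

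**Figure D3:**
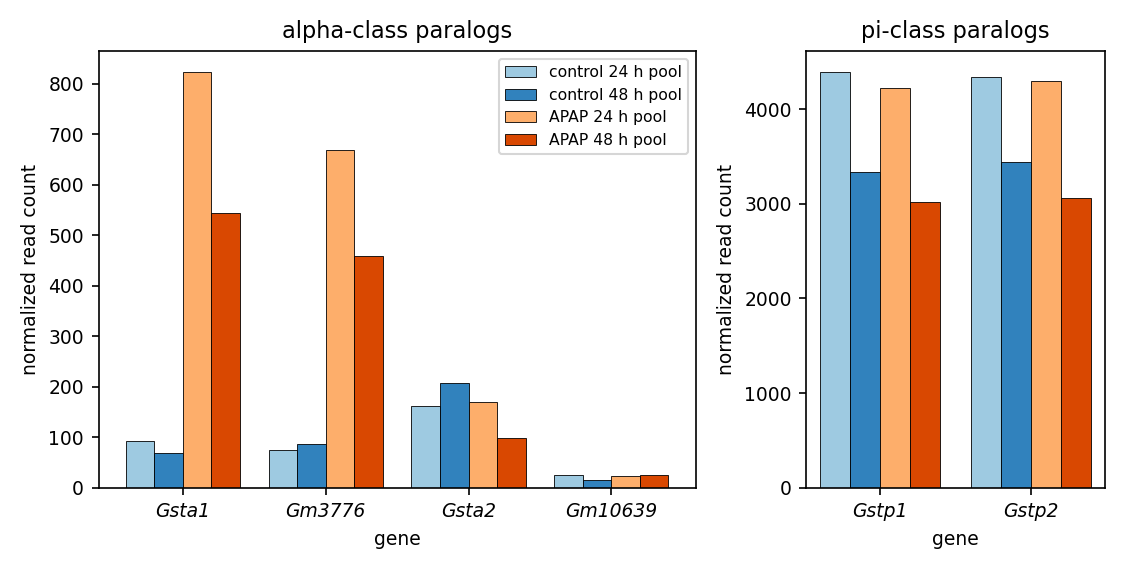
Normalised read counts, as bars from 0, of the alpha-class and pi-class genes with closely related 3′ ends in the 4 libraries. Gsta1 and Gm3776 are both higher in the APAP pools, and Gstp1 and Gstp2 hold equal shares in each library.

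The 2 control pools differed from each other in 9 of the 10 genes, with an interval that left out 1, as did 21.7% of 10157 genes. None of the members was past 2-fold between the control pools, where 1.89% of 10157 genes were higher and 1.47% lower at 48 h. Gstm2 (1.92, 1.66 to 2.22), Gstm1, Gstt1, Gsta2 and Gsta4 held more at 48 h, while Gsta3, Gstm3, Gstm4 and Gstp1 held less. Gsta1 differed by less than counting error (0.757, 0.538 to 1.06).

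The make-up of the family differed between the pools. Gstm1 took 33.7% and 49.7% of the reads of the 10 genes in the control pools at 24 h and 48 h and 36.7% and 46.6% in the APAP pools. Gsta3 took 36.5% and 25.2% in the controls, against 19.6% and 24.0% after APAP. Among the 6 members that share no 3′ end with another gene, the Gsta3 share was 76.7% and 67.3% in the controls, against 69.9% and 76.3% after APAP, so its direction at 48 h turned with the members counted. Of the reads of all 10 genes, Gsta1 took 0.371% (0.295 to 0.461) and 0.247% (0.191 to 0.315) in the controls. It took 5.57% (5.24 to 5.92) and 3.25% (2.99 to 3.52) in the APAP pools, with exact binomial intervals. Gstp1 took 17.7% and 28.5% at 24 h in control and APAP pool, while its own level at 24 h was within counting error of the control. Summed over the 10 genes, the level was 1.68 times lower at 24 h (1.64 to 1.71) and 1.69 times lower at 48 h (1.65 to 1.72).

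**Figure D4:**
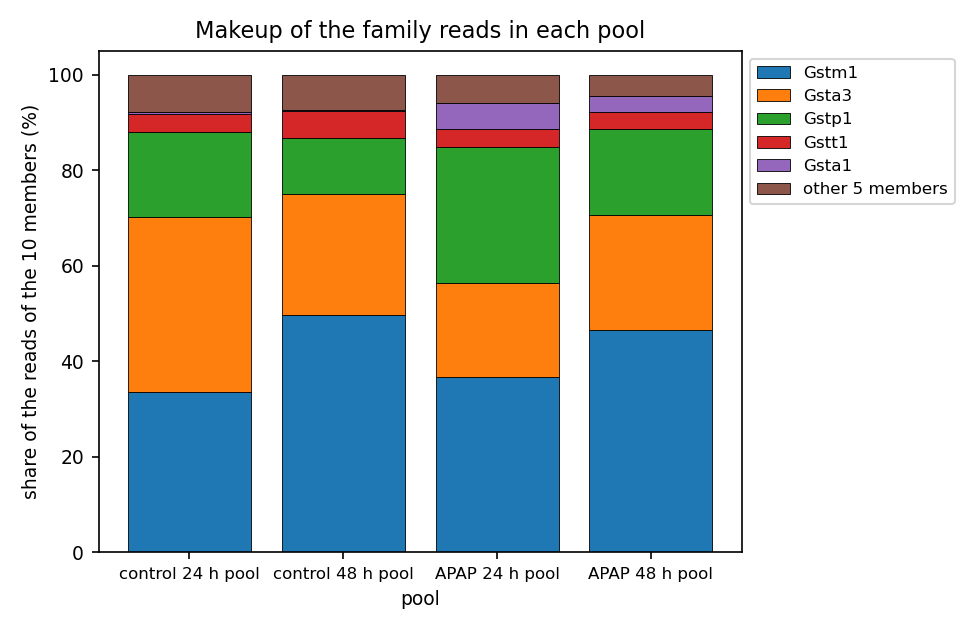
Share (percent) of the reads of the 10 genes that Gstm1, Gsta3, Gstp1, Gstt1, Gsta1 and the other 5 took in each library, as stacked bars. The Gsta1 share is the narrow part that widens from 0.371% to 5.57% at 24 h.

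The genes around the family in glutathione metabolism were split. Of 22 other GST genes listed, 13 had 20 reads in a library of a pair: at 24 h, 1 was at least 2-fold higher (Gm3776) and 2 lower (Gstm6 and Gstm7), and at 48 h, 1 was higher (Gm3776) and 4 lower (Gstm5, Gstm6, Gstt2 and Mgst1). Mgst1, a membrane-bound microsomal GST, was 1.47 times lower at 24 h (1.44 to 1.51) and 2.26 times lower at 48 h (2.21 to 2.32), and Gstm6 was 2.85 times lower (2.38 to 3.41) and 3.71 times lower (3.15 to 4.38). Gstm7 was 2.08 and 1.68 times lower at 24 h and 48 h, Gstm5 1.95 and 2.32 times, and Gstt2 1.38 and 3.21 times. The mitochondrial Gstk1 was 1.63 and 1.84 times lower, and Gstz1, of tyrosine breakdown, was 1.54 and 1.55 times lower. Mgst3 was 1.70 times lower at 24 h (1.22 to 2.38) and stood at 1.07 (0.84 to 1.36) at 48 h.

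Genes of glutathione synthesis and turnover lay on both sides of their controls. Gss, which makes glutathione in the final step, was 3.07-fold higher at 24 h (2.45 to 3.88) and 3.26-fold at 48 h (2.60 to 4.11). Gclc, the catalytic subunit of the rate-limiting ligase, stood at 1.52 (1.34 to 1.72) and 1.42 (1.23 to 1.63), and its modifier Gclm at 1.19 (1.09 to 1.30) and 1.07 (0.98 to 1.18), both below 2-fold. Of 20 listed synthesis and turnover genes, 15 had 20 reads at 24 h, where 2 were at least 2-fold higher (Gss and the glutathione-degrading Chac1) and 4 lower (Cth, Ggt6, Nat8 and Acy1). Ggt1, which starts the breakdown of glutathione conjugates outside the cell, had at most 2 reads in any library. At 48 h, 3 of 16 were higher (Gss, the cystine carrier Slc7a11 and Ggt5) and 1 lower (Nat8). Cth, which makes cysteine from cystathionine, was 2.12 times lower at 24 h (1.87 to 2.42) and 1.14 times lower at 48 h (1.03 to 1.25). Nat8, which acetylates cysteine conjugates to mercapturic acids, was 2.93 times lower (2.28 to 3.77) and 2.26 times lower (1.78 to 2.88), and Acy1, which removes such acetyl groups, was 2.30 and 1.28 times lower. Ggt6 was 2.18 times lower at 24 h and 1.34 times at 48 h. Few reads lay behind the higher values: Chac1 stood at 3.75 (1.25 to 15.1) at 24 h and Ggt5 at 2.04 (0.90 to 5.06) at 48 h, an interval that holds 1. Slc7a11 had 2 and 3 reads in the controls and 16 and 23 in the APAP pools.

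Gsr, which regenerates glutathione from its oxidised form, stood at 1.94 (1.67 to 2.27) at 24 h and 1.19 (1.005 to 1.41) at 48 h. Of 16 listed peroxidase and thiol genes, 13 had 20 reads, with Gpx3 and Srxn1 at least 2-fold higher at 24 h and Gpx3 at 48 h, and Gpx1 lower at both times. Srxn1, which repairs oxidised peroxiredoxins, was 4.51-fold higher at 24 h (3.79 to 5.40) and 1.83-fold at 48 h (1.48 to 2.28). Gpx3, the secreted peroxidase, stood at 2.32 (1.68 to 3.26) and 2.11 (1.497 to 3.002). The cytosolic peroxidase Gpx1 was 2.02 times lower (1.96 to 2.08) and 2.11 times lower (2.05 to 2.17).

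Among 7 genes listed as conjugate efflux pumps, not all of them known for glutathione conjugates, 5 had 20 reads. The canalicular pump Abcc2 stood at 0.85 (0.76 to 0.95) and 0.90 (0.81 to 1.01), and the basolateral Abcc3 at 0.90 and 0.86. Abcc6 was 2.07 times lower at 24 h (1.67 to 2.58), Abcg2 was 2.06 times lower at 48 h (1.70 to 2.49), and the basolateral pump Abcc4 was 3.09-fold higher at 48 h (1.64 to 6.24).

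**Figure D5:**
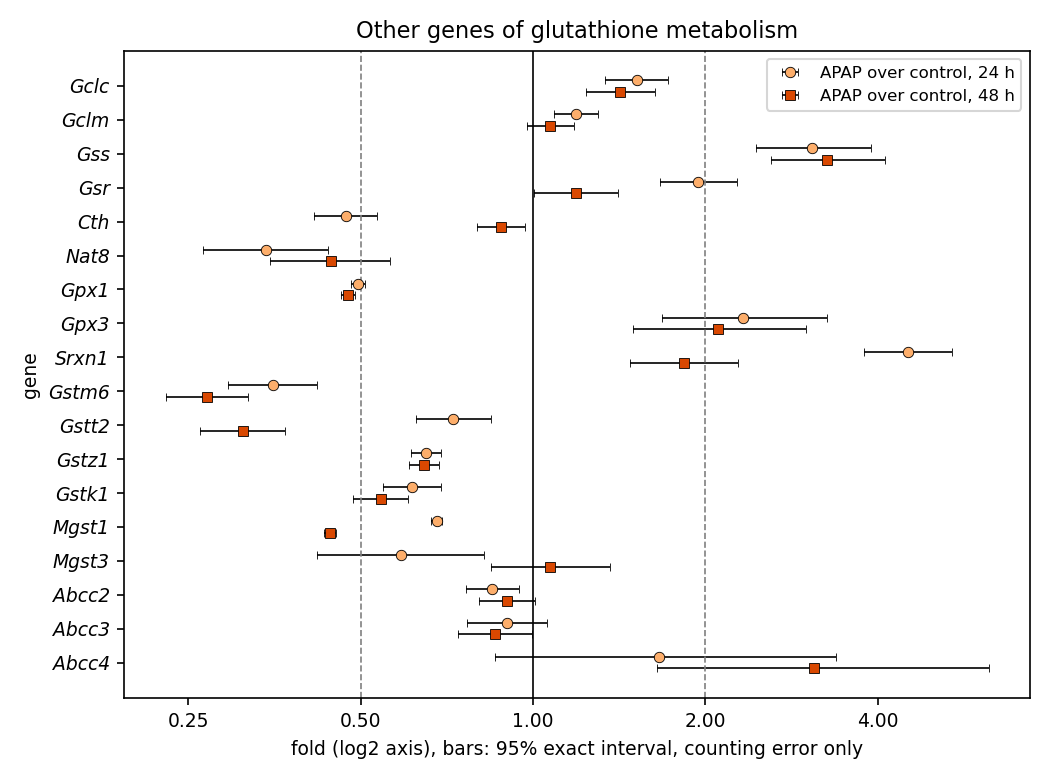
Folds, APAP pool over its time-matched control (log2 axis, 95% exact counting intervals, dashed lines at 2-fold), of further genes of glutathione metabolism and export at 24 h and 48 h. Gss lies right of 2 at both times, and Gpx1 and Gstm6 lie left of the lower dashed line.

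Genes outside the GST family whose level over the 4 libraries ran most like 4 of the members were ranked by Euclidean distance of centred log2 normalised reads. They were sought among 3689 genes with at least 100 reads in each library, a number that still includes GST genes. For Gsta1 the nearest were Mt1 (0.743), Pck1 (1.34) and Apcs (1.37). For Gstm1 they were Iah1 (0.077), Sema4g (0.169) and Sept9 (0.190), for Gstp1 Traf5 (0.035), Gm15564 (0.069) and Ube2e2 (0.083), and for Gstt1 Aadat (0.160), Gm5096 (0.179) and Cyp2c70 (0.185). With 4 libraries such likeness is a description only, and the Gsta1 distances are larger than the others.

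Markers of liver zones and cell types differed between the pools too, and their part in the folds above was not tested. Of 13 pericentral markers with 20 reads, 8 were at least 2-fold lower at 24 h and 9 at 48 h, among them Glul, 9.32 times lower (8.43 to 10.3) and 11.8 times lower (10.5 to 13.2). The others were Cyp1a2, Oat, Slc1a2, Rhbg, Cyp2c29 and Rgn at both times, Tbx3 at 24 h, and Cyp27a1 and Cyp2e1 at 48 h. Cyp2e1, which activates APAP, was 1.61 times lower at 24 h (1.55 to 1.66) and 2.71 times lower at 48 h (2.60 to 2.83). Of 12 periportal markers, 5 were at least 2-fold lower at 24 h (Cyp2f2, Gls2, Ass1, G6pc and Etnppl) and 2 at 48 h (Cyp2f2 and G6pc), while Pck1, of gluconeogenesis, was 4.07-fold and 3.30-fold higher. None of the pericentral markers was 2-fold higher. The summed level of 8 hepatocyte markers was 85829 RPM and 87564 RPM in the controls and 88760 RPM and 102515 RPM in the APAP pools, a scale on which the median gene is shifted up in the APAP pools. On normalised read counts the median log2 fold of these markers was -0.21 at 24 h, with Fga, a fibrinogen chain, at least 2-fold higher, and -0.031 at 48 h. The sums that follow are on the RPM scale too. Cholangiocyte markers summed to 35.2 and 45.1 RPM in the controls and 95.3 and 81.8 RPM after APAP, with Cldn4 at 0 in both pools at 24 h. Of 3 markers with 20 reads, 1 was at least 2-fold higher, Sox9 at 24 h and Spp1 at 48 h. From control to APAP, Sox9 stood at 11.9 and 53.9 RPM at 24 h and at 13.3 and 28.6 RPM at 48 h. Spp1 stood at 10.7 and 23.2 RPM, then 13.3 and 34.2 RPM. Krt7, Krt19 and Epcam had at most 15 reads in any library. Their folds were 1.40, 0.999 and 1.25 at 24 h and 0.33, 0.54 and 0.61 at 48 h, with intervals that held 1. Myeloid markers summed to 144 and 141 RPM and then 242 and 379 RPM, with 4 of 10 and 8 of 11 at least 2-fold higher. These were Lyz2, Marco, Ly6c2 and Cd14 at both times, and Ptprc, Cd68, Cx3cr1 and Ccr2 at 48 h. Neutrophil markers summed to 3.09 and 3.27 RPM and then 42.5 and 34.8 RPM, with S100a8 and S100a9 higher and Ngp and Camp at 0 or 1 read. Of 8 stellate markers, 1 and 4 were at least 2-fold higher (Acta2 at both times, and Col1a1, Col3a1 and Des at 48 h). The 8 summed to 96.5 and 100 RPM and then 135 and 242 RPM. Endothelial markers summed to 158 and 165 RPM and then 176 and 203 RPM, with only Lyve1 of 7 at least 2-fold higher. On normalised read counts their median log2 fold was -0.089 at 24 h and -0.148 at 48 h. Lymphocyte markers, none with 20 reads, summed to 3.50 and 2.12 RPM and then 1.05 and 2.23 RPM. Erythroid ones summed to 3653 and 2470 RPM and then 2909 and 1585 RPM, with 2 of 5 at least 2-fold lower at 48 h (Hbb-bt and Alas2).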

How the data were processed

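RNA from the livers of each group was pooled by the authors, so that each of the 4 groups is 1 library (MACE-kit v.2). Per the labels and the study's methods, the authors removed duplicate reads by molecular identifiers, trimmed with cutadapt, clipped poly(A), mapped to mm10 and counted reads per gene with HTSeq. The deposited counts per gene, which are not normalised, were used. The authors' RPM, log2 ratios (control over APAP), p-values and FDR columns were not used. How strand and reads matching several genes were handled is not given in the sources used here.

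Libraries were assigned to groups by their labels. Size factors came from DESeq2 1.42.0 (median of ratios, 16338 genes) in R 4.3.3; each time point has 1 library per group and was not tested. Over both times, the 2 APAP pools were tested against the 2 control pools by edgeR 4.0.16 (quasi-likelihood, TMM, genes reaching 20 reads in any library), with time as a block, DESeq2 and leaving out each library as alternatives, all added after seeing the data. On simulated counts with counting error only, this test called 100% of 4-fold changes and 0.14% of unchanged genes, over 10937 genes. Spread between pools was not simulated, so the share of false calls in the real pools was not tested. A count of 3 or fewer was set to 3. Intervals (95%, Clopper-Pearson) were computed in Python 3.11.15 with scipy 1.17.1, and the ratio of folds has an exact conditional interval. They cover counting error only. Background shares count genes with at least 20 reads in the library of the pair with more. The procedure was tested on simulated counts with counting error only (4-fold changes in 200 genes). In these, 100% of changed genes were recovered, and 0.803% (24 h) and 1.01% (48 h) of unchanged genes were called, over 10656 and 10548 genes. Of the intervals, 95.6% and 95.5% held the true fold, in counts without spread between pools.

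Ends of transcripts (300 bases, GENCODE mouse release 21, GRCm38) were compared with whole transcripts by blastn 2.17.0. Promoter sequences are from RefSeq. Alternatives were TMM (edgeR 4.0.16), library totals, other floors, a pseudocount of 1, the control of the other time, both controls summed and the 5-fold threshold. All members were named; of the gene lists, all genes past 2-fold with 20 reads and a fixed set were named. One gene of the pericentral list is not reported here and was left out of its counts. The members and lists were chosen with earlier results of these data known, and the count of genes whose APAP pools lay on the same side of both controls was added after seeing the data.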

Additional observations from a re-analysis of the deposited data

Results flagged for a closer look

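Gsta2 had values on opposite sides of 1 at the 2 time points, with a fold of 1.06 (0.847 to 1.32) at 24 h and 0.476 at 48 h. The 24 h interval holds 1, and the 24 h value was 0.823 against the other control pool and 0.922 against both controls summed. The ratio of the later fold to the earlier was 0.451 (0.323 to 0.629, counting error only), and with 1 library per group the difference between time points was not tested over mice.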

How the results depend on the processing

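Of 120 folds of members under alternatives, 77 stayed within their counting interval, 42 left it and 1 left it and reversed. In 6 the value crossed 1: Gstp1 at 48 h (1.09 under library totals, the only case whose interval had left out 1), Gstp1 at 24 h (1.09 under library totals, 1.27 against the other control pool, 1.10 against both summed) and Gsta2 at 24 h (0.823 and 0.922 against those controls). That scaling raised the median log2 fold over all genes by 0.19 at 24 h and 0.27 at 48 h. TMM, a floor of 10 reads and a pseudocount of 1 moved none of the folds beyond that interval. With each APAP pool set against the other control pool, all 20 folds moved beyond it, as the 2 control pools differed; whether time or the pools' mice account for this was not tested. Summed over the alpha class, the value in place of the Gsta1 group was 0.489 at 24 h and 0.672 at 48 h. This is the reverse of the 4.77 and 2.97 of the 4 genes linked by their 3′ ends, since Gsta3 and Gsta4 enter the sum. The link is by chained matches, as the Gsta1 end itself matched Gsta2 at 94.6% and Gm10639 at 94.0%, below 95%.

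Members at least 2-fold lower at 24 h were 4 (4.93% of genes), and 6 against the other control pool, 7 against the sum of both controls and 0 at 5-fold (0.643% of genes). At 48 h they were 5 (5.31% of genes), and 3 under library totals, 3 against the other control pool and 0 at 5-fold (0.84% of genes). Shares over all genes were not computed under library totals or the other controls. Whether the counts of members under those settings differ from those of all genes was therefore not tested. The median log2 fold at 24 h (-0.88) was -1.28 against the other control pool and -1.13 against the sum of both. That at 48 h (-0.999) was -0.73 under library totals and -0.74 against the other control pool. One member at least 2-fold higher remained, Gsta1, at both times. In the edgeR test over both times, added after seeing the data, 6 members were lower, beside 4.87% of genes. With time as a replicate block, which pairs the pools by time (log2 fold of Gstm1 -0.74), 7 were lower, beside 7.37% of genes. With DESeq2, 6 were lower, beside 3.89% of genes. Without 1 library, the log2 fold of Gsta1 ran from 2.76 to 3.34. Without the control pool at 48 h, those of Gsta4 and Gstt1 were -0.86 and -0.77. A lone pool is then assumed to vary like the other group. Gsta1 was called in each of these fits. Gstp1 ran from -0.34 to 0.12 on the log2 scale without 1 library, at 0.11 without the control pool at 24 h and 0.12 without the APAP pool at 48 h. All 24 shares of members without a shared 3′ end left their interval when the other members were dropped. Within a time point no library could be left out.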

Other observations

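Among thiol genes that neither changed 2-fold nor stand in the report, the thioredoxin reductase Txnrd1 stood at 1.60 (1.39 to 1.84) at 24 h and 0.975 (0.842 to 1.13) at 48 h. Esd, an esterase that releases glutathione from S-formylglutathione, stood at 1.43 (1.34 to 1.54) and 1.30 (1.22 to 1.40). Prdx6, a peroxiredoxin that uses glutathione, stood at 0.993 (0.942 to 1.05) and 0.779 (0.739 to 0.822). Hagh, of the glyoxalase system, stood at 0.746 (0.672 to 0.828) and 0.851 (0.776 to 0.932).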
